A study of Mus musculus with 33 samples.

Results

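The genes described are those of the proteasome, taken as every row of the count table whose symbol is Psm, then a letter from a to g, a number and at most 1 further letter. The rule found 49 of 35321 genes: 8 alpha (Psma) and 11 beta (Psmb) genes of the core, 9 of the base, 8 of the lid, 7 assembly factors, 5 activators and 1 inhibitor. The data are single-cell RNA libraries of 33 germinal vesicle oocytes, the full-grown oocytes of the ovary before meiosis resumes, from 3-week-old C57BL6/Babr females of 3 genotypes at Nlrp5, a gene of the subcortical maternal complex of the oocyte. Nlrp5-/- oocytes carry on both alleles a 5 bp deletion made with CRISPR/Cas9, Nlrp5+/- oocytes carry it on 1 allele, and Nlrp5+/+ oocytes carry none. Libraries were made by scM&T-seq, in which the polyadenylated RNA of a cell is separated from its DNA and amplified, and oocytes had been freed from the ovaries by collagenase and trypsin. Of Nlrp5+/+ oocytes 4 had a non-surrounded nucleolus (NSN) and 6 a surrounded one (SN), the later state in which chromatin closes around the nucleolus and transcription has largely ceased. For Nlrp5+/- the numbers were 9 NSN and 7 SN, and for Nlrp5-/- 4 NSN and 2 SN. The study assigned the stages from marker genes in the same libraries, and 0 of the members is among those markers. Stages were read here from the study's staging figure, whose Nlrp5+/- oocytes per stage outnumber those its text counts, so the Nlrp5+/- groups may not be the ones the study compared. Oocyte 61, taken as Nlrp5+/- NSN, had the most SN-like marker levels of those 9, and its stage is uncertain. Oocyte 15, which is Nlrp5-/-, has no stage and enters no comparison within or between stages.

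The proteasome is the protease of the cytoplasm and nucleus that degrades proteins tagged with ubiquitin. Its core is a barrel of stacked rings in which outer alpha rings form the gate and inner beta rings carry the proteolytic sites. A regulatory particle caps the barrel: its base unfolds the substrate with a ring of ATPases, and its lid removes the ubiquitin chain. Other caps, the activators, open the gate without ATP, and Psmf1 (PI31) binds the core and inhibits it in vitro. Oocytes store proteins for the embryo, and degradation by the proteasome is needed for meiotic maturation and for clearing maternal proteins after fertilization.

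Depth was 4225037 to 15579217 counts on genes per oocyte, and values below are counts divided by size factors (normalized counts) unless another scale is named. Because no label ties an oocyte to a mouse, each genotype at each stage counts as a single sample: no test between groups was made, and each SD only describes the spread over oocytes. Nlrp5 itself, of whose transcript a 5 bp deletion leaves the rest countable, had 10060 to 28960 counts in Nlrp5+/+, 5031 to 13420 in Nlrp5+/- and 1355 to 2546 in Nlrp5-/- oocytes. Nlrp5-/- did not overlap either other genotype. All 8 oocyte markers had counts in all 32 staged oocytes. Markers of granulosa cells, the cells around the oocyte, moved with genotype: of 16, 15 had a higher mean in Nlrp5-/- than in Nlrp5+/+ at NSN and 11 at SN. Their summed level, in counts per 1000000 counts of the library (CPM), was 279.5 to 474.1 in Nlrp5+/+ and 286.3 to 669.6 in Nlrp5-/- NSN oocytes, and 317.7 to 411.8 and 328.3 to 419.4 at SN. Of 8 theca and interstitial markers 7 were higher in Nlrp5-/- at NSN and 8 at SN, with summed levels of 12.9 to 22.8 against 24.7 to 256.5 and of 4.88 to 10.2 against 20.1 and 28.0. Of 10 markers of stroma, vessels and blood 9 were higher in Nlrp5-/- at NSN and 6 at SN, with summed levels of 45.9 to 75.0 against 86.2 to 115.7, without overlap, and of 70.4 to 80.9 against 76.4 and 94.9. Of 12 immune cell markers 9 and 7 were higher, with overlapping sums (17.5 to 59.8 against 30.1 to 56.3 at NSN, 32.4 to 57.8 against 54.3 and 69.7 at SN), and Cd74, H2-Ab1, Fcer1g, Lyz2 and Cd3e were at 0 in Nlrp5+/+ NSN oocytes. Amh, Foxl2, Inhbb and Fst were at 0 in all Nlrp5+/+ NSN oocytes. Inha, the inhibin alpha subunit, had 516.6, 901 and 473.1 counts in Nlrp5-/- oocytes 13, 14 and 7 but 61.3, 23.0 and 57.5 in oocytes 29, 30 and 31, against at most 44.9 in Nlrp5+/+. The part of such RNA in the differences below was not tested, and values without oocytes 13, 14 and 7 are given for the main genes. Leaving these out does not remove the theca or stroma markers: oocytes 29 and 30 had 96.1 and 100.3 CPM of stroma, vessel and blood markers, also above all Nlrp5+/+ NSN oocytes. Of the 10 first index sequences of the libraries 0 are shared between genotypes. Littermates gave the Nlrp5-/- and Nlrp5+/- oocytes, and Nlrp5+/+ females came mostly from the colony that the line was founded from. Genotype and preparation therefore cannot be told apart.

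Promoter sequence is given for Psma6 and Psmf1, the members that differed by at least 0.5 on the log2 scale between Nlrp5-/- and Nlrp5+/+, without overlapping oocytes, at both stages. RefSeq promoter windows (250 bases before to 50 after a start, GRCm38.p6) matched 41 of the 49 members, in 44 windows. Psmb1, Psmb2, Psmb7, Psma8, Psmc3, Psmd3, Psmd7 and Psmg2 were not matched. Both stretches lie upstream of an annotated start, and positions count back from it. The Psma6 stretch is chr12:55384042-55384221 on the plus strand, from position -180 to -1, with the letters of CCAAT, the box bound by NF-Y, in capitals on either strand. The Psmf1 stretch is chr2:151741339-151741490 on the minus strand, from -180 to -29, and is all in lower case because it held 0 of the 3 motifs searched. It ends at -29 because other transcripts begin there, and it lies inside the span of Psmf1 in the count table, where the gene begins further upstream.
Psma6: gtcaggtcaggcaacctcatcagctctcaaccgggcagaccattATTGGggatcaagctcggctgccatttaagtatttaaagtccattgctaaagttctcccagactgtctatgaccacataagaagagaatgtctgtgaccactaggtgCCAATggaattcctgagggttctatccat
Psmf1: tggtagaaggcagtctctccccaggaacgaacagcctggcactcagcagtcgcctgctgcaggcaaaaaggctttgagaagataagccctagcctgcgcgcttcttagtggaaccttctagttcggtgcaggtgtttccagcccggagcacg
The Psma6 matches begin at -136, on the minus strand, and at -29, on the plus strand. Both strands of every window were searched for 3 motifs, and 0 windows held overlapping matches of different motifs. TGACNNNGC, the core of the antioxidant response element that NFE2L1 binds, was in 13.6% of member windows and in 12.4% of 32851 promoters of the same length. It was found at Psmb5, Psmb6, Psmc6, Psmd9, Psmd12 and Psme4. CCAAT was in 31.8% of member windows and 37.4% of all promoters. CCGGAAG, the core bound by ETS factors, was in 34.1% of member windows, at 14 members, and in 8.86% of all promoters. Base and lid genes are among those with CCGGAAG (Psmc1, Psmc2, Psmc6, Psmd2, Psmd4, Psmd6, Psmd11, Psmd12 and Psmd13), as are Psma6 at a second start, the assembly factors Psmg1 and Psmg3 and the activators Psme3 and Psme4. A match is a run of letters and not a measured binding site.

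Levels of different genes were compared per kilobase of the Ensembl canonical transcript, over all 32 staged oocytes. The core genes were the most abundant, with a median of 1222 normalized counts per kilobase over 7 alpha genes and 1180 over 7 beta genes. Psma7, an alpha subunit, was highest of the 49 at 3257, and Psmb6, the caspase-like catalytic subunit, followed at 2163. Medians were 447 for the base, 405.1 for the lid and 388.9 for the assembly factors. Within the regulatory particle levels were uneven: Psmd4, a ubiquitin receptor of the base, stood at 1753 and the lid gene Psmd8 at 1212, whereas the lid gene Psmd13 stood at 77.3. The activators had a median of 132.5, led by Psme3 (the nuclear PA28 gamma) at 273.1 and Psme4 (PA200) at 168. Psmf1, at 655.1 per kilobase, was above all 5 activators. Role medians of base, lid and assembly factors lie within the spread of their members, as the plot of level per kilobase by role shows.

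**Figure D1:**
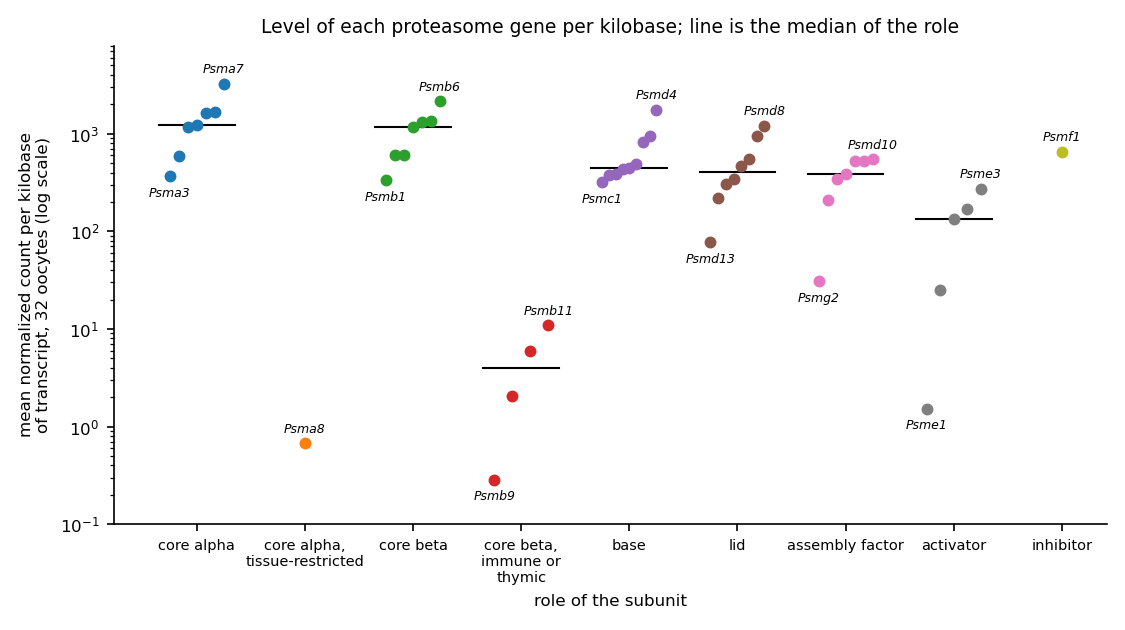
Mean normalized count per kilobase of transcript over 32 oocytes (vertical axis, log scale) for each of the 49 proteasome genes (points), by role (horizontal axis), with the median of roles of more than 2 genes as a line. The alpha and beta core genes (medians 1222 and 1180) sit above base, lid and assembly factors, and the immune genes sit near 0.

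Most genes of specialised proteasomes were at or near 0. Psma8, the alpha subunit of the spermatoproteasome of male germ cells, had a count in 10 of 32 oocytes and a pooled level of 0.0541 CPM in Nlrp5+/+ NSN oocytes (exact 95% Poisson interval 0.00655 to 0.195). In the Nlrp5-/- SN oocytes it had 0 of 16374110 counts, which allows up to 0.183 CPM when a count of 0 is taken as a limit of 3 counts. Psmb9, an interferon-induced catalytic subunit of the immunoproteasome, was counted in 4 oocytes and had 0 of 36964425 counts in Nlrp5+/+ NSN and 0 of 67530341 in Nlrp5+/+ SN oocytes, which allow up to 0.0812 and 0.0444 CPM by the same limit of 3 counts. Psmb8, the immunoproteasome counterpart of Psmb5, was counted in 16 oocytes at up to 55.3 normalized counts, in Nlrp5+/- oocyte 61, and at most 7.42 in every other staged oocyte. Oocyte 61 also had the highest summed theca and interstitial markers of the staged oocytes (320.3 CPM), and whether such RNA takes part in its Psmb8 counts was not tested. Psmb10, the counterpart of Psmb7, ranged from 0 to 33.8, with the highest count in Nlrp5-/- oocyte 14. Intervals and limits cover counting error only, since reads were amplified and carry no identifiers of single molecules.

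Psme1, which encodes the alpha chain of the immune activator PA28, was also near 0, whereas its partner Psme2 was not. In Nlrp5-/- NSN oocytes 13, 14, 29 and 30 Psme1 had 5.52, 46.2, 4.71 and 4.59 counts, and the SN oocytes 7 and 31 had 18.8 and 7.91. Nlrp5+/+ oocytes had 0 to 15. Oocyte 14 is also the staged oocyte with the most Inha counts, and the part of granulosa RNA in its Psme1 count was not tested. Psme2 had 81.4 to 152 counts in Nlrp5+/+ oocytes. Psmb11, the catalytic subunit specific to the thymus, was the exception: it had counts in all 32 staged oocytes, up to 175.2, with a mean of 33.5 ± 27.3 in Nlrp5+/+ NSN oocytes (SD over 4), which is above the floor of 10 used below.

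Nlrp5-/- was compared with Nlrp5+/+ within each stage to ask which proteasome genes differ without NLRP5. A difference is the log2 ratio of mean normalized counts after adding 1 to each mean, and genes with a mean of at least 10 in the oocytes compared were summarised. At NSN the members as a whole stood at the level of other genes: the median difference of the 44 that passed was -0.02, beside 0.00 for all 13822 genes, with 21 higher and 23 lower. Only 5 of the 44 differed by at least 0.5. Psmf1 (1.00), the lid gene Psmd3 (0.97), Psmb11 (1.15) and the lid gene Psmd13 (0.59) were higher by that much, against 15.7% of all genes. Psma6, an alpha ring subunit, was the single member lower by that much (-0.81), against 13.2% of all genes. With oocytes of the 2 genotypes not overlapping, Psmf1 was higher, against 4.02% of all genes, and Psma6, Psmb7 and Psmd8 were lower, against 3.14%.

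Among members with a mean of at least 100, Psmf1 had the largest difference at NSN and the largest in the higher direction at SN. In the 4 Nlrp5+/+ NSN oocytes it had 1429, 1567, 1284 and 2513 counts. In Nlrp5-/- it had 3254, 2771, 3508 and 4065 at NSN and 4578 and 4228 at SN. The lowest Nlrp5-/- oocyte at NSN is above the highest Nlrp5+/+ oocyte, and the margin is narrow at 2771 against 2513. At SN the 6 Nlrp5+/+ oocytes ran from 1701 over a median of 2002 to 3031, so both Nlrp5-/- oocytes are above all of them, and the difference was 0.98. As means, Psmf1 had 3400 ± 538.5 counts in Nlrp5-/- against 1698 ± 555.1 in Nlrp5+/+ at NSN (SD, n = 4 and 4), and 4403 ± 247.6 against 2232 ± 579.4 at SN (n = 2 and 6). Without oocytes 13, 14 and 7, which had the most Inha counts, the differences were 1.16 at NSN and 0.92 at SN. Oocyte 15, with the highest Inha count (2696), had 1781 Psmf1 counts, which is within the Nlrp5+/+ range. Psmf1 lies on chromosome 2 from 151715812 to 151744186 (GRCm38, minus strand), and no other gene of the table overlaps it.

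Psma6 was lower in Nlrp5-/- at both stages and had the largest difference of all members at SN. Nlrp5+/+ NSN oocytes had 2191, 2285, 1605 and 1384 counts, and Nlrp5-/- oocytes had 910.1, 1348, 1013 and 974. The groups did not overlap, although 1348 and 1384 are close. At SN the Nlrp5-/- oocytes had 895.3 and 1043, below all 6 Nlrp5+/+ oocytes (lowest 1471, median 2157, highest 2688), and the difference was -1.11. Psma6 in oocyte 15 (1134 counts) was also below the Nlrp5+/+ range. Without oocytes 13, 14 and 7 the differences were -0.91 and -1.0. The gene lies on chromosome 12 from 55384222 to 55418454 on the plus strand, and no other gene of the table overlaps it.

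**Figure D2:**
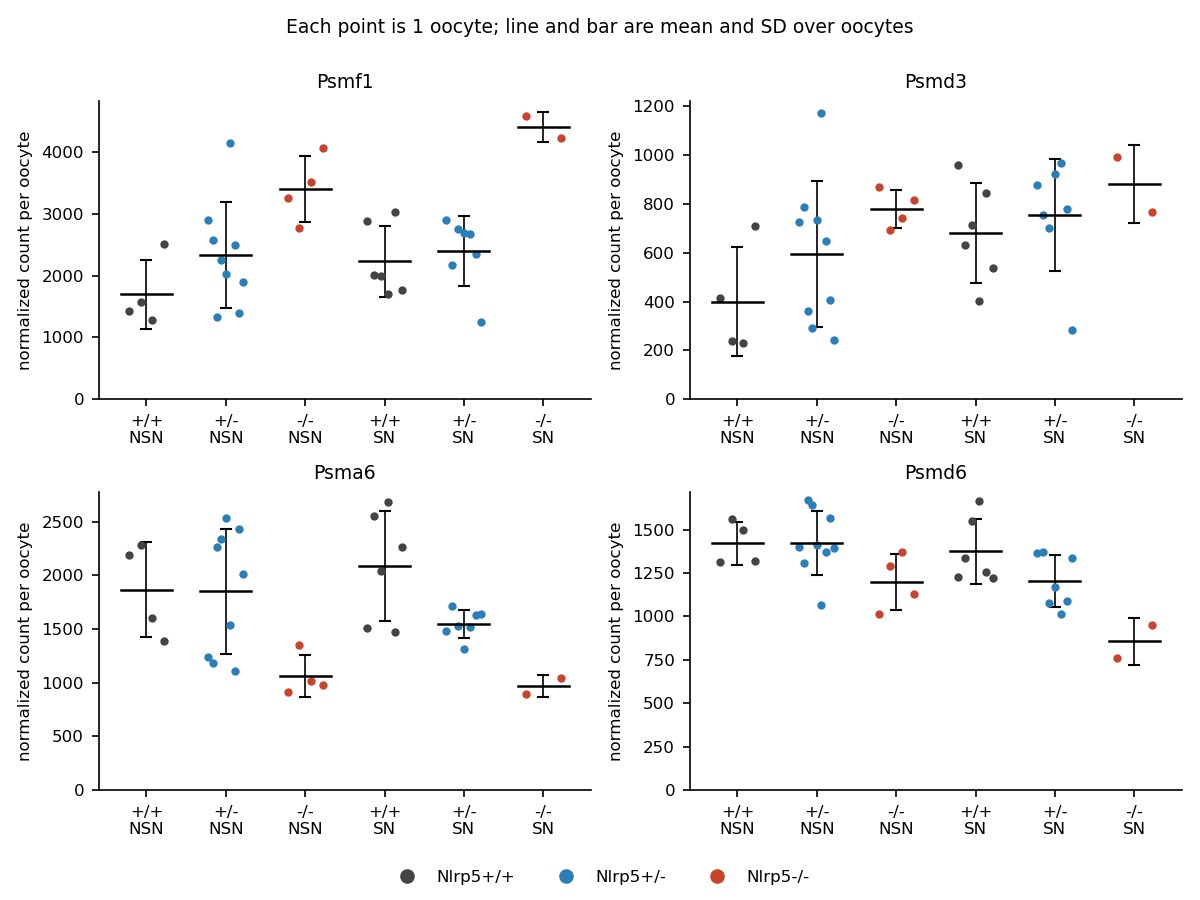
Normalized counts per oocyte (vertical axes) of Psmf1, Psmd3, Psma6 and Psmd6 by genotype and stage (horizontal axes), with each point 1 oocyte, lines the means and bars the SD over oocytes. The 6 staged Nlrp5-/- oocytes are above all Nlrp5+/+ oocytes of their stage for Psmf1 (2771 to 4578) and below them for Psma6 (895.3 to 1348), while Psmd3 overlaps.

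Psmd3, a structural lid subunit, was higher in Nlrp5-/- at NSN only by its mean, 780.2 ± 78.3 against 399 ± 223 (n = 4 and 4). Its Nlrp5+/+ oocytes had 415.9, 239.6, 232.1 and 708.2 counts, and its Nlrp5-/- oocytes had 869.6, 694.2, 740 and 817.1. Oocyte 87, at 708.2, reaches into the Nlrp5-/- range. At SN the difference was 0.37, with 993.2 and 768 counts in Nlrp5-/- and 401.6 to 958.9 in Nlrp5+/+. It ran from 0.17 to 0.55 as 1 oocyte was left out. Gm12356 overlaps Psmd3 on the other strand, and it is not stated whether counting used the strand. Psmd13, another structural lid subunit, had 172.8, 444.6, 149.3 and 214.6 counts in Nlrp5-/- NSN oocytes against 140.2 to 192.3 in Nlrp5+/+, and its difference of 0.59 was 0.13 without oocyte 14.

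Psmb7, the trypsin-like catalytic subunit, was lower in Nlrp5-/- oocytes without overlap at both stages by less than 0.5. At NSN it had 733.6, 1065, 881.4 and 1184 counts against 1232, 1257, 1227 and 1340 in Nlrp5+/+, a difference of -0.39. At SN it had 1476 and 1361 against 1497 to 2356, a difference of -0.43. The margins are 1184 to 1227 and 1476 to 1497, and Nek6 overlaps the gene on the other strand. Oocyte 15 had 1611. The other catalytic subunits did not separate: Psmb5, the chymotrypsin-like site, differed by 0.30 and 0.22 and Psmb6 by 0.15 and 0.36 at NSN and SN, with overlapping oocytes. Without oocyte 14 the Psmb5 difference at NSN was -0.105, and without oocyte 7 it was -0.295 at SN. The lid gene Psmd8 had 1167, 1715, 1109 and 1488 counts in Nlrp5-/- against 1817 to 1919 in Nlrp5+/+ NSN oocytes (-0.45), but at SN the groups overlapped and the difference was -0.17.

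At SN the comparison rests on 2 Nlrp5-/- oocytes, and more members and a larger share of all genes were past 0.5 or without overlap than at NSN. The median difference was -0.18 over 44 members, beside -0.00 over 13340 genes, with 17 higher and 27 lower. Members higher by at least 0.5 were Psmf1 (0.98), the core assembly factors Psmg3 (0.61) and Psmg2 (0.71) and Psme2b (0.68), a near copy of Psme2, so 4 of 44 against 15.8% of all genes. Members lower by at least 0.5 were Psma6, Psma3 (-0.79), Psmd6 (-0.68), Psmb11 (-0.68), Psmc6 (-0.66), Psmd1 (-0.58), Psme2 (-0.54) and Psme4 (-0.53), so 8 of 44 against 18.7%. Psmf1, Psmg1 and Psmg3 were higher without overlap (7.19% of all genes were), and Psma3, Psma6, Psmb7, Psmd1, Psmc2, Psmd6, Psmd11 and Psmd10 were lower without overlap (7.88% were). Of these 12 members 4 (Psmf1, Psma6, Psmd6 and Psmg3) stayed past 0.5 whichever oocyte was left out. Without oocyte 7 the differences were -0.478 for Psma3, -0.365 for Psmd1, -0.394 for Psme4, 0.092 for Psmb11 and -0.52 for Psme2b. Without oocyte 31 they were -1.20 for Psma3, -0.373 for Psme2 and 0.356 for Psmg2, whose Nlrp5+/+ mean of 9.21 is under the floor of 10. Psme2 was also short of 0.5 without Nlrp5+/+ oocyte 72 or 80, and Psme4 without 77 or 86. Left with oocyte 7 alone, the comparison had 19 members past 0.5, and with oocyte 31 alone it had 10.

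By role, the 4 activators that passed had a median of -0.47 at SN and the alpha genes one of -0.37 (over 7, of which 6 were lower), followed by the lid (-0.23 over 8), the beta genes (-0.14 over 7) and the base (-0.02 over 9). The 7 assembly factors had a median of 0.22, which was -0.056 without oocyte 7. At NSN the medians were -0.08 for activators, -0.02 for alpha genes, -0.06 for the lid, -0.10 for beta genes, 0.10 for the base and 0.03 for assembly factors. The alpha subunit Psma3, with 694.3 and 1143 counts in the Nlrp5-/- SN oocytes, was below all 6 Nlrp5+/+ oocytes (lowest 1256, median 1629, highest 2073). At NSN its difference was 0.09. On the other strand 3110056K07Rik overlaps Psma3, and likewise AY074887 overlaps Psma4 and 1700010K24Rik overlaps Psma5. Psmd6, a lid subunit, had 759.9 and 953.5 counts at SN against 1220 to 1665 in Nlrp5+/+, again without overlap, and its NSN difference was -0.24. The ATPase Psmc6 had 367.2 counts in oocyte 7 and 1048 in oocyte 31 against 815.9 to 1452, so its difference comes from oocyte 7, and without that oocyte it was -0.10. Psmd1, a scaffold of the base, had 814.9 and 1123 counts against 1126 to 1820, so oocyte 31 lies at the edge of the Nlrp5+/+ range. The assembly factor Psmg3 had 254.7 and 232.3 counts against 132 to 187.9 in Nlrp5+/+, and Psmg1, which starts alpha ring assembly, had 672.8 and 655.1 against 381.1 to 595.1 (0.48).

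**Figure D3:**
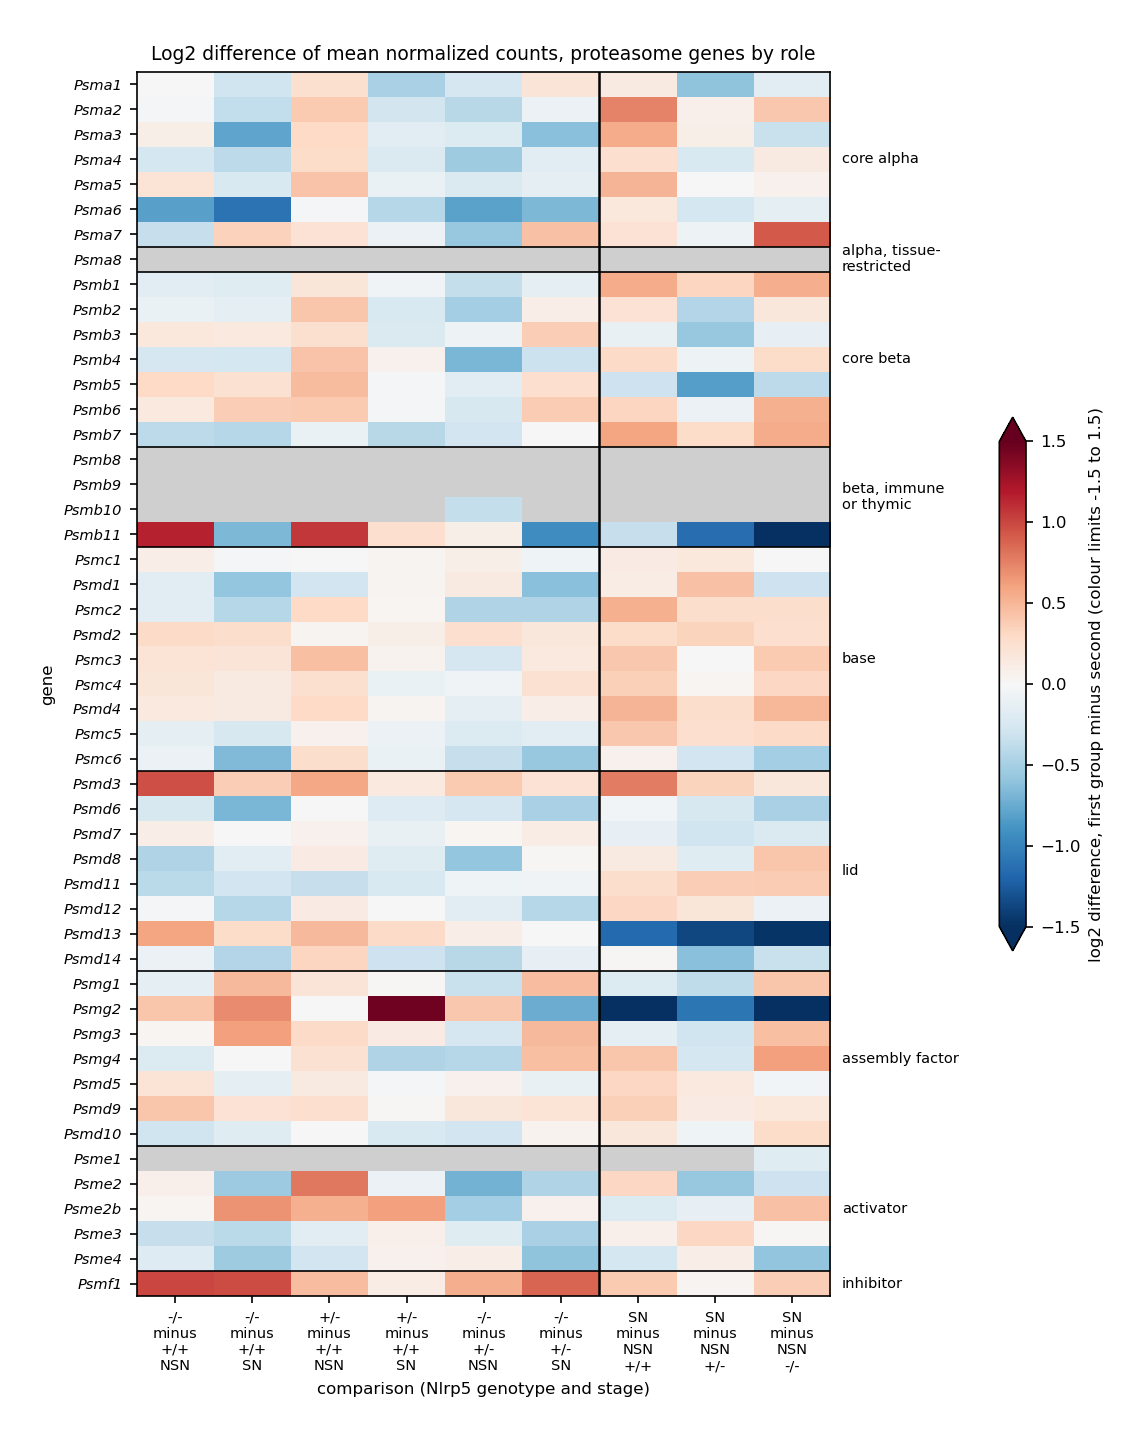
Log2 difference of mean normalized counts for each of the 49 genes (rows, grouped by role) in the 9 comparisons (columns), with red higher in the first group, blue lower, and grey where the mean was under 10. Colours stop at -1.5 and 1.5. Psmf1 is red and Psma6 blue in all 4 comparisons of Nlrp5-/- with another genotype, and Psmd13 and Psmg2 are blue in all 3 comparisons of SN with NSN.

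Nlrp5+/- oocytes were compared with the same Nlrp5+/+ oocytes, so both sets of differences share their controls. At NSN most members stood slightly higher: 37 of 44 were higher and the median was 0.24, beside 0.04 over 13717 genes. As 1 oocyte was left out, the median over members ran from 0.14 to 0.28. Medians were 0.39 for the beta genes, 0.27 for the alpha genes, 0.24 for the base and 0.13 for the lid. By at least 0.5, 4 were higher (10.9% of all genes were) and 0 were lower (8.5% were): Psmb11 (1.06), Psme2 (0.79), Psmd3 (0.58) and Psme2b (0.54). Oocytes did not overlap for Psme2, with 128.1 to 236.3 counts (median 142.3) against 81.4, 86.9, 103.5 and 126. This was 1 of 44 members higher without overlap, against 0.175% of all genes, and 0 were lower without overlap, against 0.255%. The number of members past 0.5 was 10 without Nlrp5+/+ oocyte 87, 8 without Nlrp5+/- oocyte 53, 7 without oocyte 61 and 7 with oocyte 61 counted as SN. Of the 4, Psmb11 and Psme2 stayed past 0.5 whichever oocyte was left out, while Psmd3 ran from 0.39 to 1.01 and Psme2b from 0.43 to 0.67. Psmf1 had 1325 to 4149 counts (median 2256), overlapping both other genotypes, and a difference of 0.46. Psma6 had nearly equal means, 1850 ± 583.1 against 1866 ± 440.3 (n = 9 and 4). Of 16 granulosa markers 12 had a higher mean in Nlrp5+/- at NSN and 11 at SN, and of 8 theca and interstitial markers 7 and 8, and their part in these values was not tested.

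At SN the Nlrp5+/- medians were -0.04 over 44 members and -0.01 over 13292 genes. Psmg2 (1.46) and Psme2b (0.61) were higher by at least 0.5 (5.33% of all genes were) and 0 members were lower by that much (5.28% were). Both have means under 100 counts. Psmg2, with a mean of 9.21 in Nlrp5+/+ and 27.1 in Nlrp5+/-, passed the floor of 10 only through the group in which it was higher, and Psme2b ran from 0.42 to 0.84 as 1 oocyte was left out. The number past 0.5 was 1 without Nlrp5+/- oocyte 47, 4 without oocyte 55, and 5 without Nlrp5+/+ oocyte 69 or 85. All 7 alpha genes were lower, with differences of -0.09 to -0.49, and their median was -0.22. Psma1 had 1517 to 2501 counts (median 1659) against 1698 to 3017 (median 2548) in Nlrp5+/+, with overlap. The base median was 0.04. Psmf1 (0.11) had 1258 to 2904 counts, overlapping Nlrp5+/+, and Psma6 (-0.43) had 1316 to 1719 counts, overlapping it as well.

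Nlrp5-/- was also compared with Nlrp5+/-, whose females were littermates. At NSN the median over 45 members was -0.24, beside -0.00 over 13850 genes, and all 14 core genes with alpha or beta subunits of the standard barrel were lower, with differences of -0.08 to -0.80. Of the 13850 genes 6981 were lower. Against Nlrp5+/+ at NSN, 9 of these 14 core genes were lower in Nlrp5-/- (median -0.06), and 12 were higher in Nlrp5+/- (median 0.28). In Nlrp5-/- against Nlrp5+/- at NSN, 12 of 16 granulosa, 5 of 8 theca and interstitial, 8 of 10 stroma, vessel and blood and 9 of 12 immune cell markers were higher in Nlrp5-/-. At SN 10, 2, 3 and 5 were, and their part in these values was not tested. Psmf1 (0.54) alone was higher by at least 0.5 (12.2% of all genes were). Lower by that much were Psma4, Psma6, Psma7, Psmb2, Psmb4, Psmd8, Psme2 and Psme2b, so 8 of 45 against 14.9% of all genes. Only Psma6 and Psme2 of the 9 stayed past 0.5 whichever oocyte was left out, and Psmf1 ran from 0.44 to 0.69, under 0.5 without Nlrp5-/- oocyte 30 or Nlrp5+/- oocyte 53 or 63. Those 9 were 5 without Nlrp5-/- oocyte 13, Nlrp5+/- oocyte 56 or oocyte 63. Of the 45 members 0 were higher without overlap, against 0.469% of all genes, and 0 were lower without overlap, against 0.686%. Nlrp5+/- oocyte 61, of uncertain stage, at 4149 counts of Psmf1, was above all 4 Nlrp5-/- oocytes. Psma6 (-0.80) had 910.1 to 1348 counts against 1107 to 2539. Pooled over oocytes, Psmf1 had 460.6 CPM in Nlrp5-/- (95% Poisson interval 453 to 468.2), 318.2 in Nlrp5+/- (313.8 to 322.6) and 224.6 in Nlrp5+/+ NSN oocytes (219.8 to 229.5), and these intervals leave out the spread between oocytes.

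At SN, against Nlrp5+/-, Psmf1 (0.87) was above all 7 oocytes, at 4578 and 4228 counts against 1258 to 2904, and was the 1 of 44 members higher by at least 0.5 (14.5% of all genes were). Psma6 (-0.67), Psma3, Psmb11, Psmc6, Psmd1, Psmg2 and Psme4 were lower by at least 0.5, so 7 of 44 against 17.7%. Psma6 was below all Nlrp5+/- SN oocytes, at 895.3 and 1043 against 1316 to 1719, and so were Psmd1 (-0.62), Psmd6 (-0.49) and Psme3 (-0.48). Without overlap, then, 1 of 44 members was higher, against 5.22% of all genes, and 4 were lower, against 5.85%. Psmf1 and Psma6 stayed past 0.5 whichever oocyte was left out, whereas the other 6 did not without oocyte 7, when Psma3 was at -0.316, Psmd1 at -0.409, Psmc6 at 0.0029 and Psme4 at -0.302. The median over members was -0.03. With oocyte 7 alone 19 members were past 0.5, and with oocyte 31 alone 4 were.

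SN was compared with NSN within each genotype, the step at which oocytes finish growth. Of 16 granulosa markers 9 had a higher mean at SN in Nlrp5+/+, 11 in Nlrp5+/- and 4 in Nlrp5-/-, and of 8 theca and interstitial markers 5, 1 and 2. Summed theca levels in Nlrp5+/+ did not overlap between stages, at 12.9 to 22.8 CPM at NSN and 4.88 to 10.2 at SN. Of 10 stroma, vessel and blood markers 7, 9 and 2 were higher at SN, and the part of such RNA in the stage values was not tested. Psmd13, of the lid, and Psmg2, of core assembly, were lower at SN by at least 0.5 in all 3 genotypes. Among the higher ones, the core genes Psmb7, Psmb1 (0.55, 0.32 and 0.55 in Nlrp5+/+, Nlrp5+/- and Nlrp5-/-) and Psma2 had positive values in all 3, although the Nlrp5+/- value of Psma2, 0.07, ran from -0.0058 to 0.17 as 1 oocyte was left out. In Nlrp5+/+, Psmd13 had 140.2, 173.2, 192.3 and 146.4 counts at NSN and 38.4 to 122.8 (median 70.2) at SN, without overlap, and the difference was -1.17. It was -1.37 in Nlrp5+/- (162 to 316.9 against 28.5 to 178.9, with overlap) and -1.47 in Nlrp5-/- (149.3 to 444.6 against 59 and 116.5, without overlap). Without oocytes 13, 14 and 7, and also within first index sequences, the Nlrp5-/- value was -0.64. Of the base and lid genes it was the lone member this far down, and at 77.3 counts per kilobase it was also the least abundant lid gene. Sirt3 overlaps Psmd13 on the other strand, so reads of the neighbour cannot be told apart here.

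Psmg2, which pairs with Psmg1 to start the alpha ring, stood lower at SN by more on the log2 scale but from low counts. Nlrp5+/+ oocytes had 49.4, 30.9, 107.6 and 45.8 counts at NSN and 2.67 to 24.8 at SN, without overlap, and the SN mean of 9.21 is under the floor of 10. The difference was -2.54 in Nlrp5+/+ oocytes. In Nlrp5+/- it was -1.09 (0 to 108.7 counts at NSN against 1.02 to 44.2 at SN, with overlap). In Nlrp5-/- it was -2.24 (53.4 to 114.4 against 12.1 and 19.4, without overlap). Psmg1 differed by -0.20, -0.38 and 0.42 in the same order. The values of this pair between stages thus differed in size, and in Nlrp5-/- in sign.

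Psma2 and Psmb7 stood higher at SN. In Nlrp5+/+, Psma2 had 3254, 3495, 2662 and 3042 counts at NSN and 4050 to 6284 at SN, without overlap (0.74), while the differences were 0.07 in Nlrp5+/- and 0.40 in Nlrp5-/-, where it was 0.091 without oocyte 7 and 0.65 without oocyte 31. Psmb7 differed by 0.59, 0.28 and 0.55, and its Nlrp5+/+ oocytes, 1227 to 1340 at NSN and 1497 to 2356 at SN, did not overlap. AW209491 overlaps Psma2 on the same strand. Psmb5, the chymotrypsin-like subunit, stood lower at SN instead, with differences of -0.32, -0.82 and -0.39, of which the Nlrp5-/- value ran from -0.91 to 0.012 as 1 oocyte was left out. Psmb6 had 0.32, -0.09 and 0.54.

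**Figure D4:**
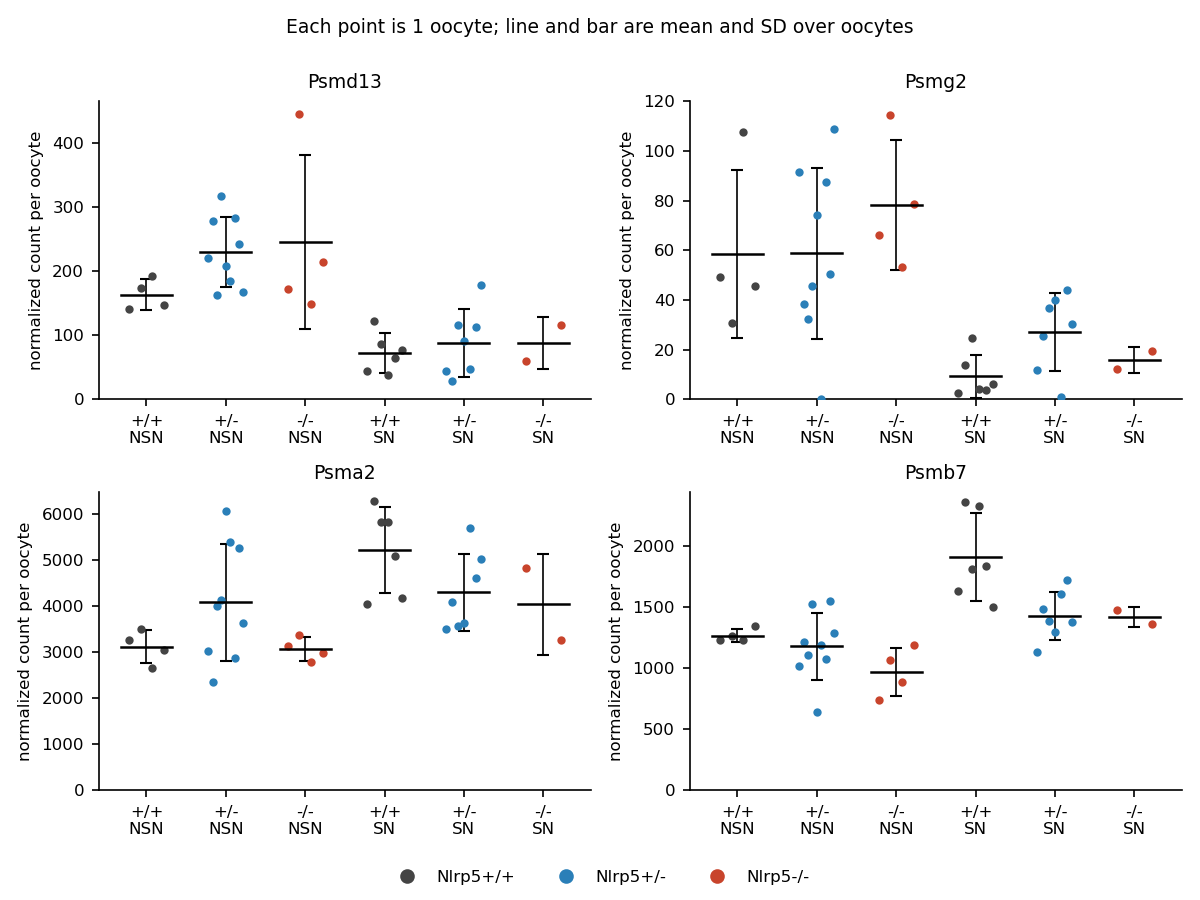
Normalized counts per oocyte (vertical axes) of Psmd13, Psmg2, Psma2 and Psmb7 by genotype and stage (horizontal axes), with each point 1 oocyte, lines the means and bars the SD over oocytes. Psmd13 and Psmg2 have lower means at SN in each genotype, with overlapping oocytes in Nlrp5+/-. Psma2 and Psmb7 lie higher at SN in Nlrp5+/+ (4050 to 6284 and 1497 to 2356).

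By role, the stage medians differed between genotypes. In Nlrp5+/+ the median over 44 members was 0.24, beside 0.03 over 13571 genes, and all 7 alpha and all 9 base genes were higher at SN (medians 0.26 and 0.36). By at least 0.5, 8 members were higher at SN (Psma2, Psma3, Psma5, Psmb1, Psmb7, Psmc2, Psmd3 and Psmd4; 14% of all genes were) and Psmd13 and Psmg2 were lower (19.9% were). Psma2, Psma5 and Psmb7 were higher without overlap (3.76% of all genes were), and Psmd13 and Psmg2 were lower without overlap (6.03% were). Of these 10, Psma2, Psmb7, Psmd3, Psmd13 and Psmg2 stayed past 0.5 whichever oocyte was left out, and the lowest values of the other 5 were between 0.40 and 0.49. The lid had a median of 0.07, with 5 of 8 higher. That median changed sign with total counts (-0.031), pooled sums (-0.089) and medians over oocytes (-0.10), and without oocyte 80 (-0.013). Scaled by total counts, the median over all members was 0.13 and 4 members were past 0.5.

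In Nlrp5+/- the median over 44 members was -0.07, beside -0.05 over 13608 genes, with 0 members higher by at least 0.5 (9.32% of all genes were) and 8 lower (19.4% were). Those 8 are Psma1, Psmb3, Psmb5, Psmb11, Psmd13, Psmd14, Psmg2 and Psme2, of which Psmb3 (-0.39 without oocyte 56) and Psme2 (-0.47 without oocyte 37) did not stay past 0.5 as 1 oocyte was left out. The base had a median of 0.25, with 7 of 9 higher, but within first index sequences it was -0.17. In Nlrp5-/- the median over 45 members was 0.16, beside -0.05 over 13830 genes, with 6 members higher by at least 0.5 (14.2% of all genes were) and 5 lower (23.8% were). Higher were Psma7, Psmb1, Psmb6, Psmb7, Psmd4 and Psmg4, and lower were Psmb11, Psmc6, Psmd13, Psmg2 and Psme4. Psma7 (0.92) was the highest of the 6, from 1418, 2188, 2220 and 2936 counts at NSN to 5092 and 3202 at SN, and it was 0.31 without oocytes 13, 14 and 7 and also within first index sequences. Without overlap, 10 of 45 members were higher at SN, against 9.36% of all genes, and 4 were lower, against 10.8%. Of the 11 past 0.5, Psma7, Psmb11, Psmd13 and Psmg2 stayed so whichever oocyte was left out. Those 11 past 0.5 were 19 without oocyte 31 and 6 without oocyte 13. Whether the stage values differ between genotypes was not tested.

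Stage could also be compared within single first index sequences, 6 of which hold oocytes of both stages of 1 genotype. Each compares few oocytes. AAGAGGCA and GCTCATGA hold 2 SN and 1 NSN, CTCTCTAC 1 SN and 3 NSN, TCCTGAGC 1 SN and 2 NSN, and GTAGAGGA and TAGGCATG 2 of each. Psmd13 was lower at SN in all 6, with differences of -0.35 to -1.63, and so was Psmg2, with -0.72 to -2.99. Psma2 was higher in all 6, with differences of 0.08 to 0.94, and so was Psmb7, with 0.31 to 0.74. Besides these, Psma4 was higher and Psmb5 lower in all 6. That makes 6.82% of the 44 members with a mean of at least 10 higher in all 6 and 6.82% lower, beside 7.15% and 9.6% of 13683 genes, so their shares were close to or under the background.

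Summed over genes, the members took 6467 to 7319 CPM in Nlrp5+/+ NSN oocytes, 6407 to 9944 in Nlrp5+/- and 5953 to 7376 in Nlrp5-/-. At SN the ranges were 6669 to 8439, 6327 to 8204 and 6971 to 7734. The ranges overlap in every pair of genotypes at 1 stage. The 14 core genes took 3258 ± 209.5 CPM in Nlrp5+/+ and 2979 ± 605.4 in Nlrp5-/- at NSN (SD, n = 4 and 4), a difference smaller than the second SD. The lid took 994.5 ± 63.1 and 892.9 ± 61.2, with ranges of 926.7 to 1075 and 837.2 to 961 that overlap. At SN the lid took 875.4 and 905.2 CPM in Nlrp5-/-, below all Nlrp5+/+ oocytes (935.1 to 1101) but within the Nlrp5+/- range (838 to 1014). The activators took 216.9 and 265.1 CPM in Nlrp5-/- at SN, below Nlrp5+/+ (281 to 376.9) and Nlrp5+/- (277.5 to 504.5), whereas at NSN the ranges of 254.2 to 434.6 in Nlrp5+/+ and 258.1 to 386.3 in Nlrp5-/- overlap. The assembly factors had means of 542.2 to 585.7 in the 3 genotypes at NSN.

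**Figure D5:**
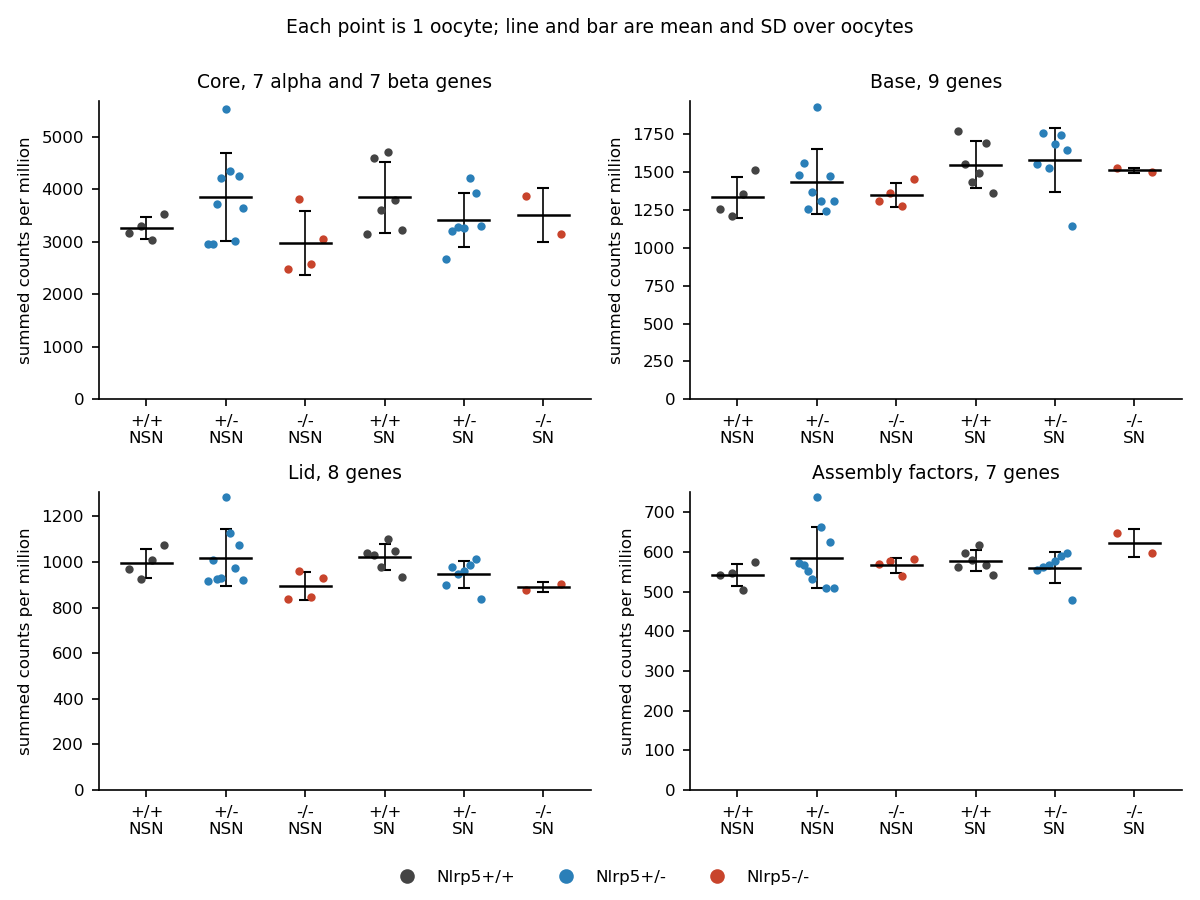
Summed counts per 1000000 counts (CPM) per oocyte (vertical axes) of core, base, lid and assembly factor genes by genotype and stage (horizontal axes), with each point 1 oocyte, lines the means and bars the SD over oocytes. Ranges of the 3 genotypes overlap at each stage for the core genes, for example 3041 to 3530 in Nlrp5+/+ and 2484 to 3805 in Nlrp5-/- at NSN.

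Members also varied together from oocyte to oocyte within groups. After the mean of each genotype and stage was subtracted from log2 values, Psmf1 varied with Psmd3 (Pearson's r = 0.80 over 32 oocytes, as a description, among 41 members with a mean of at least 100) and opposite to Psme4 (r = -0.75) and Psma6 (r = -0.65). In the 10 Nlrp5+/+ oocytes alone the same values were 0.85, -0.89 and -0.78, and with the mean of each first index and stage subtracted in the 27 oocytes that allow it they were 0.69, -0.56 and -0.58. Oocyte 87 shows this among Nlrp5+/+ NSN oocytes: it had the most Psmf1 (2513) and Psmd3 (708.2) and the least Psma6 (1384) and Psme4 (559.1). Psma6 had its highest values with Psma4 (r = 0.67), Psma1 (0.66) and Psmb2 (0.65), followed by genes outside the barrel (Psmd10 at 0.62 and Psmg4 at 0.61) and by Psma2 (0.615). Of the other barrel genes, Psma3 (0.60), Psma5 (0.51), Psmb6 (0.47) and Psmb1 (0.42) lay between. Psma7 (0.29) and Psmb4 (0.25) were lower, and Psmb7 (0.17), Psmb5 (0.12) and Psmb3 (0.065) were lowest. All values of an oocyte come from 1 library and share its depth and scaling. The correlation of Psmf1 with log2 of the total count was 0.20.

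Genes that work with the proteasome but carry other symbols were taken from a list of 28, of which 25 were in the table. In Nlrp5-/- against Nlrp5+/+ at NSN their median was -0.00, with 2 higher by at least 0.5 and 4 lower, and at SN it was 0.02, with 1 higher and 4 lower. Over all genes 15.7% were higher and 13.2% lower by that much at NSN, and 15.8% and 18.7% at SN. Without overlap, 3 of the 25 were higher and 0 lower at NSN, against 4.02% and 3.14% of all genes. At SN, which rests on 2 Nlrp5-/- oocytes, 1 was higher and 2 were lower, against 7.19% and 7.88%. Pomp, the maturation factor of the core, was -0.84 at NSN and -0.70 at SN. Txnl1, a thioredoxin bound to the regulatory particle, was -0.64 and -0.97, and Akirin2, which brings proteasomes into the nucleus, was -0.40 and -0.66. At NSN the oocytes of both genotypes overlapped for Pomp, Txnl1 and Akirin2. Vcp, the unfoldase that delivers substrates, was at 0.56 and 0.48. Nfe2l1, the transcription factor that drives subunit genes when proteasome activity is low, had differences of -0.00 and 0.02, and Ddi2, the protease that activates it, 0.48 and 0.18. The remaining lid and base subunits of the complex outside the Psm symbols were Sem1 (-0.36 and 0.24) and Adrm1 (0.18 and 0.17). In the other 7 comparisons at most 8 of the 25 were past 0.5, in Nlrp5-/- against Nlrp5+/- at NSN, as 3 higher and 5 lower (12.2% and 14.9% of all genes were).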

How the data were processed

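The deposited count table holds whole counts per gene, which the authors made by trimming reads with Trim Galore, aligning them with HISAT2 (versions not given in the sources used here) and counting in SeqMonk. File headers name GRCm38, while the methods name GRCm39; libraries under 4000000 reads had been left out, and the lowest deposited read count was 4023242. Tables of the authors' own fold changes and p-values were not used. Of 35373 entries, 52 repeated a gene ID and the entry with the most counts was kept. Counts were divided by median-of-ratios size factors over 32 staged oocytes (11863 genes). Stages come from the study's figures, not from the sample labels, and were set there with 105 NSN and 59 SN marker genes. A difference is log2 of the ratio of means, each plus 1, and genes with a mean of at least 10 in the oocytes compared were kept. Depth was 4225037 to 15579217 counts (median 7727317). Members were chosen to be named if they had a mean of at least 100 and a difference of at least 0.5 in any of 9 comparisons. The 2 highest and 2 lowest of each comparison were also chosen. So were Psmf1 and Psma6, which the study listed on these same samples, so their direction is not independent evidence. The catalytic and immune subunits and those near 0 complete the choice. Not every qualifying difference of these genes is printed. Psmb11, Psmg2 and Psme2b, under 100, were added after their values were seen. Members and lists were chosen with earlier results of these data known. Transcript lengths are from GENCODE vM39. Scripts were tested on simulated data. Values were computed with pandas 2.3.3, numpy 2.4.6 and scipy 1.17.1 under Python 3.11.15 and plotted with matplotlib 3.10.9; edgeR 4.0.16 in R 4.3.3 gave the TMM factors of 1 alternative. Other alternatives changed the scaling, the summary over oocytes, the added count, the floor, the staging and the oocytes used. The values of 1 listed partner gene are not reported here.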

Additional observations from a re-analysis of the deposited data

Results flagged for a closer look

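By Dixon's gap rule, a single oocyte stood far from the others of its group in 15 of 150 groups of members or summed shares. Chance gives about 1 in 20 of separate groups, but these share their oocytes, and 10 of the 15 come from oocytes 55 and 56, so that rate is no chance level for the count. Oocyte 55 (Nlrp5+/- SN) was highest for Psma1 (2501 normalized counts), Psma4 (1846), Psmc6 (1762), Psmd8 (2420.0) and Psme4 (2402) and lowest for Psmd3 (284.9). Oocyte 56 (Nlrp5+/- NSN) was highest for Psmb3 (2317), Psmb5 (2279), Psmd4 (4161) and Psmg3 (536.2). Oocyte 87 (Nlrp5+/+ NSN) was lowest for Psma1 (1629), was highest for Psmb4 (1836), and had the highest share of counts on all members (7319 CPM). Psmd8 was 3468 in oocyte 80 (Nlrp5+/+ SN), and Psme4 was 1883 in oocyte 13 (Nlrp5-/- NSN).

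Oocyte 15, Nlrp5-/- with no stage, entered no comparison within or between stages. It was above all Nlrp5+/+ oocytes for Psmb4 (2516, against at most 2495), Psmb5 (1255, against 1225), Psmb6 (3691, against 3223), Psmg3 (299.3, against 273.6) and Psme2 (570.9, against 152). It also had the highest Inha count and a summed granulosa marker level of 1316 CPM, and the part of such RNA in these values was not tested.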

How the results depend on the processing

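No paired analysis was possible because the replicate numbers only follow accession order and pair no oocytes; stage was compared within first index sequences. Among summaries of the comparisons 1073 alternative values moved by less than the spread between oocytes or within 1.5 times of a count and 73 moved further. Among the 15 named genes recomputed under every alternative, 2796 values did not move further, 62 did, and 7 that had been past 0.5 changed sign. Gene values of Psmg2, Psmb11, Psme2b and the rest of the named genes were not recomputed under changes of scaling, summary or added count. In all, 163 values of the 15 genes changed sign, 156 of them where the reported difference was under 0.5. Psmb11 (from -0.68 to 0.092) and Psme2b (from 0.68 to -0.52) also changed sign without oocyte 7, in Nlrp5-/- against Nlrp5+/+ at SN. Comparisons with no regard to stage also took in oocyte 15, and values without it, chosen after seeing the data, follow in brackets. The cause of these changes was not tested beyond the oocytes left out. For Nlrp5-/- against Nlrp5+/+ at NSN, members past 0.5 were 8 with medians over oocytes, 8 without oocytes 13, 14 and 7, and 10 [7] with no regard to stage, where the base median was -0.02 [0.008], the lid median -0.27 [-0.23] and the core median [-0.25]. At SN 7 members were past 0.5 with no regard to stage and without oocyte 15, the lid median was -0.10 with medians over oocytes, and the assembly median -0.056 without oocytes 13, 14 and 7. For Nlrp5+/- against Nlrp5+/+ at NSN, members past 0.5 were 8 with medians, 2 with a floor of 100, 7 with no filter and 7 with oocyte 61 as SN; with no regard to stage the median was 0.034 for all members, 0.027 for the core and 0.026 for the base. At SN they were 4 with medians, 0 with a floor of 100, 6 with no filter and 4 with no regard to stage, where the lid median was 0.013. For Nlrp5-/- against Nlrp5+/- at NSN, medians over oocytes gave 0.029 for the base and 0.12 for assembly; pooled sums left 4 members past 0.5; with no regard to stage 5 [4] were, with 0.13 for assembly. At SN 4 were past 0.5 without oocytes 13, 14 and 7, and 5 [4] with no regard to stage, where the lid was -0.21 [-0.18], the core [-0.24] and assembly [-0.0084]. For SN against NSN in Nlrp5+/+, total counts gave 0.13 for all members, -0.031 for the lid and 4 past 0.5; pooled sums 0.11, -0.089 and 4; medians -0.10 for the lid. In Nlrp5+/- the base was -0.17 within first index sequences. In Nlrp5-/- the base was 0.15 with pooled sums (7 past 0.5), and 0.18 both without oocytes 13, 14 and 7 (5 past 0.5) and within first index sequences (6). Psme2 changed sign with no regard to stage only with oocyte 15 (570.9 counts) included, to 0.54 against Nlrp5+/+ at SN and 0.17 against Nlrp5+/- at NSN; without oocyte 15 the first was -0.21. Psmc6 changed sign without oocyte 7, alone or with 13 and 14, to 0.0029 against Nlrp5+/- at SN, and between stages in Nlrp5-/- to 0.058 without oocyte 7 and 0.078 without 13, 14 and 7 or within first index sequences. With oocyte 7 as the lone Nlrp5-/- SN oocyte these Psmc6 values were -1.51 and -1.45.

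Leaving out 1 oocyte at a time gave assembly medians of -0.16 to 0.16 (Nlrp5-/- against Nlrp5+/+, NSN), -0.056 to 0.32 (SN) and 0.038 to 0.45 (against Nlrp5+/-, SN), base medians of -0.24 to 0.024 (against Nlrp5+/-, NSN) and 0.14 to 0.38 (SN against NSN in Nlrp5-/-), and lid medians of -0.25 to -0.0023 (against Nlrp5+/-, SN) and -0.013 to 0.14 (SN against NSN in Nlrp5+/+). Members past 0.5 ran from 10 to 19 in Nlrp5-/- against Nlrp5+/+ at SN, 3 to 10 and 1 to 5 in Nlrp5+/- against Nlrp5+/+ at NSN and SN, 5 to 12 and 4 to 19 in Nlrp5-/- against Nlrp5+/- at NSN and SN, and 6 to 19 between stages in Nlrp5-/-. The SN values of Nlrp5-/- rest on 2 oocytes.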

Other observations

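Oocyte 15 was below all Nlrp5+/+ oocytes for Psma3 (738.1 against at least 793.3), Psma6 (1134 against 1384), Psmb2 (1791 against 1919), Psmc6 (275.9 against 615.8), Psmd6 (584.3 against 1220) and Psmd11 (964.7 against 1221), in normalized counts. In the same oocyte the immune members had counts of 279.2 for Psme1, 180.6 for Psmb10 and 33.4 for Psmb9, against at most 46.2, 33.8 and 9.70 in staged oocytes, and 40.1 for Psmb8, which was under the 55.3 of oocyte 61.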
